A study of Homo sapiens with 2 samples.

Results

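The genes described here build the ribosome in the nucleolus. They were taken by symbol: names of the NOP, NOL, NOC, UTP, RRP, POLR1 and URB series, together with 20 named factors such as RRN3, FBL, NCL and BYSL. Of 14884 genes named on the array, 49 matched. Among the 20 factors given by full symbol, 5 (PES1, NPM1, DKC1, TSR1 and UBTF) are unnamed here and were not analysed. The 49 comprise 45 protein-coding genes and 4 loci that only share the symbol pattern, namely the pseudogenes RRP7BP and NOC2LP2, the antisense RNA URB1-AS1 and the divergent transcript NOL4L-DT.

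RNA came from A549, an established line of human lung adenocarcinoma cells. The stretch group was A549 cells held for 4 h in a stretch culture system, and the static group was A549 cells held for 4 h in a static one. Each group had 1 array, so no value below has a replicate, no test between the groups is possible, and the number of arrays limits the precision. The amplitude and frequency of the stretch are not stated in the sources used here, nor is the number of cultures behind each RNA.

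In the nucleolus, RNA polymerase I copies the ribosomal RNA genes into a long precursor, and its initiation depends on RRN3, which links the polymerase to the promoter-bound factors. Small nucleolar ribonucleoproteins (snoRNPs) modify the precursor, the small subunit processome folds and cuts its 18S part, and separate sets of factors assemble the 40S and 60S subunits. Growth signals and the transcription factor MYC are known to raise the expression of many of these genes.

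The deposited signals are log2 values, and each difference is stretch minus static, so that 1 is a 2-fold higher signal under stretch and 0.58 is 1.5-fold. Signals of 18 measured genes of unrelated tissues gave a guide to background: 4.27, the 95th percentile of their values. A signal at or below it is called within the background range, where differences are compressed. The differences of those 18 genes ranged from -0.72 to 0.77, and 0 of them reached 2-fold. Named genes past a level filter leaned upward under stretch. The median difference was 0.20 over the 10981 genes whose higher value reached 2.52, the median of all values. Over all 14884 named genes the median difference was 0.06, and over all 53617 probe sets it was -0.04. Of 14 epithelial markers, 6 were measured by name, and all but KRT19 exceeded the background bound on both arrays. KRT7 read 7.56 on the stretch array and 5.41 on the static array (2.15), KRT8 read 5.47 on the stretch array and 4.60 on the static array (0.87), and KRT18 read 11.00 on the stretch array and 10.29 on the static array (0.71). KRT19 stood at 0.01, GPX2 at -0.49 and EPCAM, which read 4.71 on the stretch array and 5.30 on the static array, at -0.59. On neither array did any of the 4 measured endothelial or the 2 measured fibroblast markers exceed the background bound. Of the 3 measured leukocyte markers, LYZ lay within it, while CD14 (5.53 on the stretch array and 5.13 on the static array) and CD68 (8.58 on the stretch array and 7.51 on the static array) lay above it, and their part in the results was not tested. In bulk RNA, fewer cells of a type and less RNA per cell cannot be told apart.

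The nucleolar genes were mostly higher on the stretch array. Of the 49, 46 had a positive difference and 3 a negative one. Of the 10981 genes past the filter, 6953 had a positive difference and 3884 a negative one. At least 2-fold higher were 19, among them the initiation factor RRN3, the 60S assembly pair URB1 and URB2, the 40S export factor RRP12 and the nucleolar regulator MYBBP1A, while 0 were 2-fold lower. Over the 10981 genes, 12.3% passed 2-fold upward and 2.5% downward. At 1.5-fold, 31 of the 49 were higher and 0 lower, where the genes past the filter gave 27.7% higher and 8.9% lower. The median difference of the 49 was 0.89, against 0.20 for the genes past the filter. Of the 10981 genes, the 100 with the highest differences held 5 of the 49.

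All but NOL4 passed the level filter. NOC2L passed it only through its stretch value. For 8 of the 19 genes 2-fold higher, the static signal was at or below the background bound, and for 1 of these, NOC2L, the stretch signal was too. Static signals at or below the bound were found for 14 of the 49 genes and for 5471 of the 10981 genes past the filter.

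**Figure D1:**
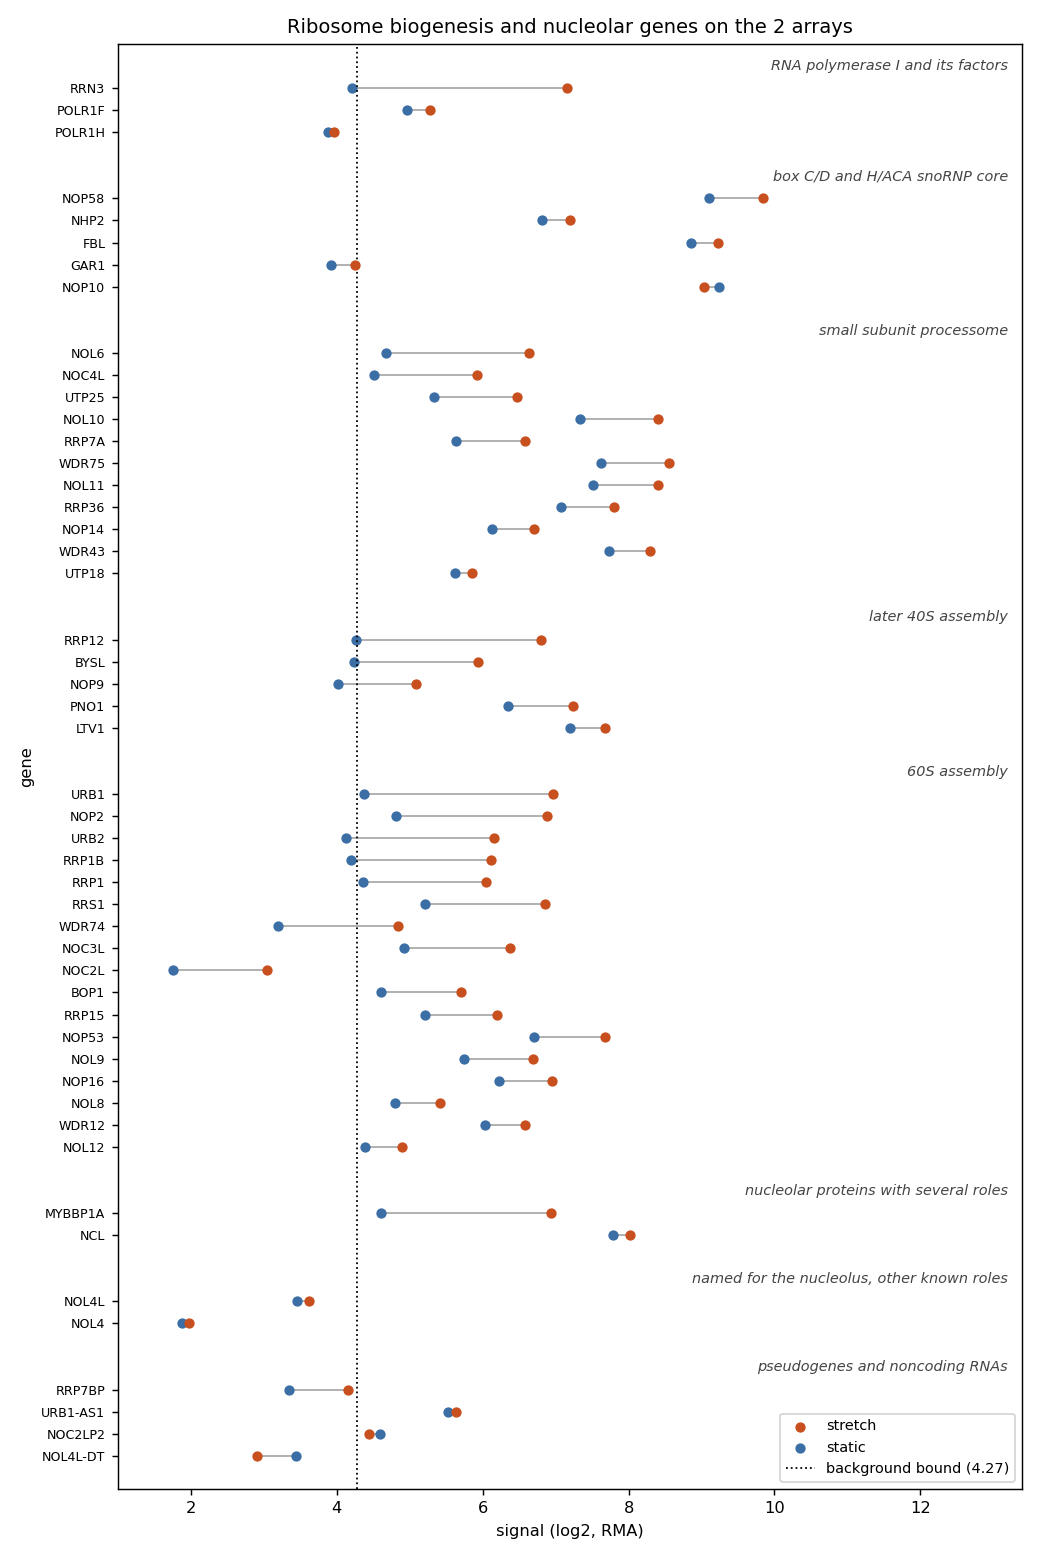
Signal (log2) of each of the 49 genes on the stretch array (orange) and the static array (blue), grouped by role, with 1 array per condition and the background bound of 4.27 as a dotted line. Orange lies right of blue for 46 genes and left of it for NOP10, NOC2LP2 and NOL4L-DT, and the longest bar is that of RRN3.

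Both the direction and the size of small differences depend on how the arrays are scaled. Measured reference genes had a median difference of 0.40, over 11 genes ranging from -0.50 to 1.72. When the arrays were centred on them, 10 of the 49 genes with small positive differences turned negative, FBL, NCL and GAR1 among them. Under that scaling 14 of the 49 were at least 2-fold higher, where 5.01% of genes were. A loess on level turned the sign of 5 genes and put 15 at least 2-fold higher, where 7.26% of genes were. Quantile normalization turned 4 and also put 15 there, where 6.47% of genes were.

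**Figure D2:**
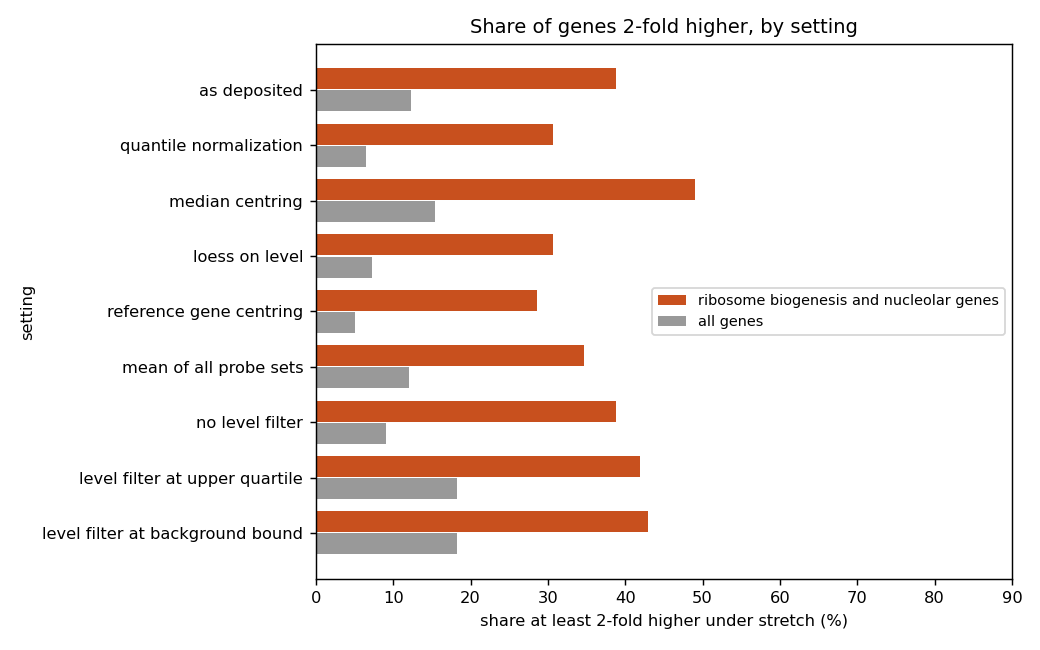
Share of genes at least 2-fold higher under stretch (percent) among the nucleolar genes (orange) and all genes (grey), for the deposited values and 8 other settings. The nucleolar share ran from 28.6% (reference gene centring) to 49.0% (median centring), and the share of all genes from 5.01% to 18.3%.

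The lean of the genes past the filter depended on signal level, so the nucleolar genes were also set beside others of their own level. Only NOC2L lay from 2 to 3 in mean signal. From 3 to 4, 0 of 4 nucleolar genes were 2-fold higher, where 8.19% of genes were. The medians there were 0.125 for the nucleolar genes and 0.06 for all genes. From 4 to 5 in mean signal, 2 of 5 nucleolar genes were 2-fold higher, where 16.7% of genes were, and the medians were 0.51 for the nucleolar genes and 0.35 for all genes. In the range from 5 to 6, which held 19 of the nucleolar genes, 14 were at least 2-fold higher, where 21.4% of the 1861 genes in that range were. The median difference there was 1.68 for the nucleolar genes and 0.46 for all genes. From 6 to 7, 1 of 7 nucleolar genes was 2-fold higher, where 16.8% of genes were, and the medians were 0.89 for the nucleolar genes and 0.45 for all genes. From 7 to 8, it was 1 of 7 where 10.4% of genes were, with medians of 0.73 (nucleolar) and 0.28 (all). From 8 to 10, it was 0 of 5 where 8.24% of genes were, with medians of 0.56 (nucleolar) and 0.29 (all). The 2-fold differences of these genes thus lay mostly in the range from 5 to 6. The nucleolar median was above that of all genes in each range from 3 to 10, with the smallest gap from 3 to 4. Across the 49 genes, the difference had a Pearson correlation of -0.04 and a Spearman correlation of -0.02 with the mean signal, against 0.23 and 0.31 across the 10981 genes. These are descriptions of 2 arrays, and the points share those arrays.

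**Figure D3:**
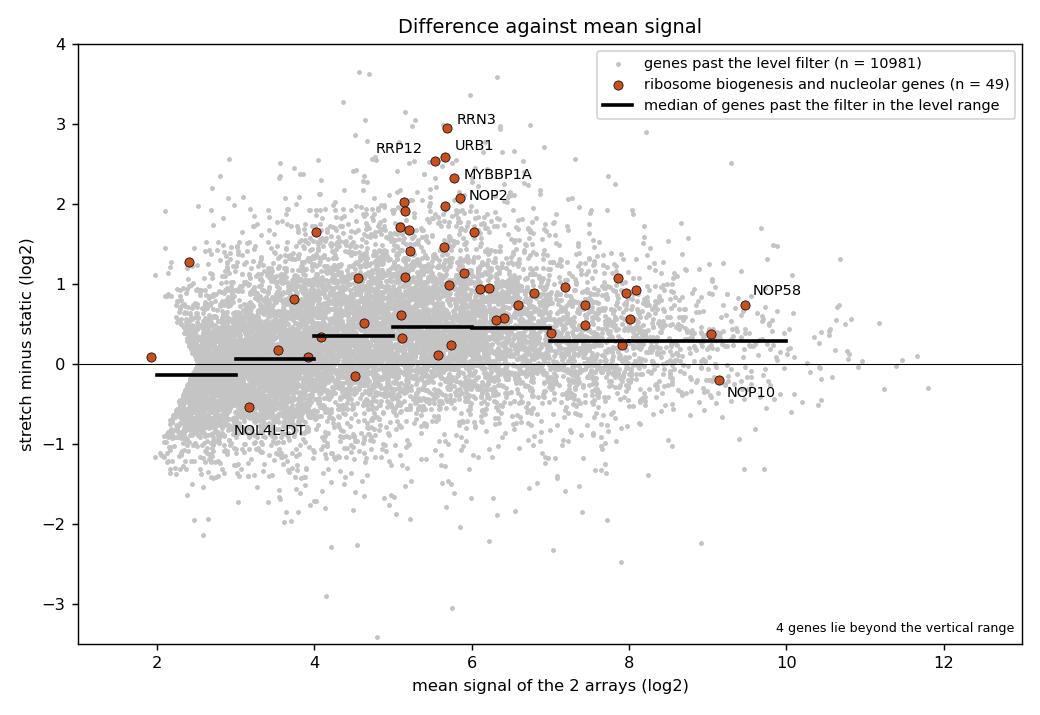
Difference, stretch minus static (log2), against the mean signal of both arrays (log2) for the 49 nucleolar genes (orange) and the 10981 genes past the level filter (grey), with black lines at the median of the grey genes in each level range. The nucleolar genes with the highest differences, RRN3 to NOP2, lie between mean signals of 5 and 6, and 4 grey genes lie beyond the vertical range.

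The promoters of these genes were searched for the E-box, a hexamer that MYC and other basic helix-loop-helix factors bind. RefSeq windows from 250 bases before to 50 bases after the annotated start (GRCh38.p14) were found for 40 of the 49 genes and the hexamer was CACGTG, which reads the same on both strands. Several windows were given for 5 of these genes, and a gene counted as holding the hexamer if any of its windows did. Of the 40 genes, 15 (37.5%) held it, and each of these 15 had at least 1 copy within 50 bases of the start. All 15 belong to the 38 protein-coding genes with a window (39.5%), and the other 2 genes with a window are noncoding loci. Among measured protein-coding genes past the level filter, 12.2% of 7863 held it anywhere in the window and 4.96% held it within 50 bases of the start. Among the other assembly factors described further on, 32.6% of 43 held it anywhere and 23.3% within 50 bases. The match is a description of sequence and not a bound site. The 15 genes with the hexamer had a median difference of 0.61, from -0.20 to 2.33, with 6 at least 2-fold higher. The 25 without it had a median of 0.89, from -0.54 to 2.95, with 7 at least 2-fold higher. Genes without a window are in neither group. Both counts together thus leave out some of the 19 among the 49 genes that were at least 2-fold higher. Of all genes past the filter, 12.3% were at least 2-fold higher.

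The windows below show the hexamer (capitals) in the 4 genes with the highest differences among those that hold it, and in the 2 with the lowest, UTP18 and NOP10. Each is 30 bases of the gene's sense strand from RefSeq, written 5′ to 3′. The first base of the hexamer is 28 bases into the transcript of MYBBP1A, 36 into that of NOP2, 14 into that of NOL6, 29 into that of BYSL and 5 into that of UTP18, counting the annotated start as base 1. In NOP10 it lies 11 bases before the start, and a further copy lies 170 bases before it, while UTP18 has a further copy 89 bases before its start.
MYBBP1A, chr17:4555340-4555369, minus strand: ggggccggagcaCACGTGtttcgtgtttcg
NOP2, chr12:6568242-6568271, minus strand: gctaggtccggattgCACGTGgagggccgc
NOL6, chr9:33473894-33473923, minus strand: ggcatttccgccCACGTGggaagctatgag
BYSL, chr6:41921515-41921544, plus strand: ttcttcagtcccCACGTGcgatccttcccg
UTP18, chr17:51260538-51260567, plus strand: gcagcgaggttcCACGTGagcgcctgcgtt
NOP10, chr15:34343130-34343159, minus strand: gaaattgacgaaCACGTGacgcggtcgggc

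Of 10 genes listed for RNA polymerase I and its factors, only 3 were measured by name: RRN3, POLR1F and POLR1H. The other subunits of the polymerase are not covered here. RRN3 stood far from POLR1F and POLR1H. RRN3, the initiation factor that growth pathways are known to regulate, read 7.16 on the stretch array and 4.21 on the static array, a difference of 2.95 (7.73-fold), and ranked 15 of 10981 genes from the top. Its static value lay within the background range. POLR1F, a stalk subunit of the polymerase, read 5.28 on the stretch array and 4.96 on the static array. POLR1H, a small subunit that takes part in transcript cleavage, read 3.96 on the stretch array and 3.88 on the static array, within the background range on both. The differences of 0.32 and 0.08 turn negative under reference gene centring, loess and quantile normalization. RRN3 has pseudogene copies of similar sequence, and its signal cannot be fully separated from theirs. RRN3P2 read 2.63 on the stretch array and 4.61 on the static array, a difference of -1.98, opposite to that of RRN3. RRN3P1 had a difference of -0.16 and RRN3P3 one of 0.38. These 3 copies were chosen after the value of RRN3 was seen.

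Of the core proteins of the snoRNPs, 0 of 5 measured genes differed by 2-fold, where 12.3% of all genes past the filter were higher and 2.5% lower. NOP58, a scaffold of the box C/D particles, read 9.84 on the stretch array and 9.10 on the static array, a difference of 0.74. It was the 1 of 5 core genes past 1.5-fold, where 27.7% of all genes past the filter were higher. FBL, the fibrillarin methyltransferase of the same particles, read 9.23 on the stretch array and 8.86 on the static array (0.37). The H/ACA proteins, which work with dyskerin to make pseudouridine, are NHP2, GAR1 and NOP10. NHP2 read 7.20 on the stretch array and 6.81 on the static array. GAR1 read 4.25 on the stretch array and 3.92 on the static array, within the background range on both. NOP10 was the only protein-coding member with a negative difference in the deposited scaling, at 9.04 on the stretch array and 9.24 on the static array (-0.20). The median difference of the 5 was 0.37, and reference gene centring turned FBL, NHP2 and GAR1 negative.

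Of 22 genes listed for the small subunit processome, the large particle that forms on the 18S part of the precursor, 11 were measured by name. All 11 were higher on the stretch array in the deposited scaling, as were 6953 of the 10981 genes past the filter. The median difference of the 11 was 0.93. Of them 8 were past 1.5-fold and 4 past 2-fold (27.7% and 12.3% of all genes past the filter). After loess, 2 of the 11 were past 2-fold, where 7.26% of all genes were. NOL6, the human counterpart of yeast Utp22, read 6.64 on the stretch array and 4.67 on the static array (1.97). NOC4L read 5.92 on the stretch array and 4.51 on the static array (1.41). Its known binding partner NOP14 read 6.70 on the stretch array and 6.13 on the static array (0.57). UTP25 had a difference of 1.14, with 6.47 on the stretch array and 5.33 on the static array. NOL10 read 8.40 on the stretch array and 7.33 on the static array (1.07). The other probe set of NOL10, within the background range on both arrays, had a difference of 0.21, and the mean of both was 0.64.

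WDR75, NOL11 and WDR43 belong to the processome subcomplex that also serves transcription of the precursor. Their differences ran from 0.56 to 0.93, a range in which RRP36 and NOP14 also lay. WDR75 had a difference of 0.93 (8.55 on the stretch array and 7.62 on the static array), NOL11 one of 0.89 (8.40 on the stretch array and 7.51 on the static array) and WDR43 one of 0.56 (8.29 on the stretch array and 7.73 on the static array). RRP7A, which in yeast joins the Utp22 subcomplex, had a difference of 0.94, and RRP36 one of 0.73. UTP18 read 5.86 on the stretch array and 5.62 on the static array, and its difference of 0.24 turned negative under reference gene centring, loess and quantile normalization.

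Factors of later 40S assembly had a median difference of 1.08 over 5 genes, with 3 past 2-fold, where 12.3% of all genes were. RRP12, which takes part in nuclear export of the subunits, read 6.80 on the stretch array and 4.26 on the static array, a difference of 2.54 (5.82-fold) that ranked 35 of 10981. BYSL (bystin), a factor of the maturing small subunit, read 5.94 on the stretch array and 4.23 on the static array (1.71). NOP9 read 5.09 on the stretch array and 4.01 on the static array (1.08). The static values of these 3 lay within the background range. PNO1, which in yeast holds the pre-rRNA with the nuclease Nob1, read 7.24 on the stretch array and 6.35 on the static array (0.89). LTV1, a late 40S factor, read 7.68 on the stretch array and 7.19 on the static array (0.49).

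Assembly factors of the 60S subunit formed the largest role, with 17 genes, a median difference of 1.28, 15 past 1.5-fold and 10 past 2-fold. Of all genes past the filter, 27.7% passed 1.5-fold and 12.3% passed 2-fold upward. URB1, which in yeast acts in the earliest 60S precursors, read 6.96 on the stretch array and 4.37 on the static array, a difference of 2.59 (6.02-fold) at rank 27. URB2, its partner in yeast, read 6.15 on the stretch array and 4.13, below the background bound, on the static array (2.02). The noncoding RNA URB1-AS1, whose locus neighbours URB1, read 5.63 on the stretch array and 5.52 on the static array (0.11). Whether the probes separate the strands is not stated in the sources used here. NOP2, a methyltransferase of the large ribosomal RNA, read 6.88 on the stretch array and 4.81 on the static array (2.07, rank 98).

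The paralogues RRP1B and RRP1, both on chromosome 21 as is URB1, were each more than 2-fold higher. RRP1B read 6.11 on the stretch array and 4.20, below the background bound, on the static array (1.91), and RRP1 read 6.04 on the stretch array and 4.36 on the static array (1.68). RRS1, which helps to bring the 5S particle into the 60S precursor, read 6.86 on the stretch array and 5.21 on the static array (1.65). WDR74 had the same difference of 1.65, with 4.84 on the stretch array and 3.19, below the background bound, on the static array. NOC3L read 6.38 on the stretch array and 4.92 on the static array (1.46). NOC2L, known also as a histone acetyltransferase inhibitor, read 3.04 on the stretch array and 1.76 on the static array (1.28), within the background range on both. The pseudogene NOC2LP2 read 4.44 on the stretch array and 4.59 on the static array.

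BOP1 and WDR12 form with PES1 a complex needed to process the large-subunit RNA. WDR12 read 6.58 on the stretch array and 6.03 on the static array (0.55). BOP1 depended on the probe set. The one with the higher mean read 5.70 on the stretch array and 4.61 on the static array (1.09), the other 5.10 on the stretch array and 5.06 on the static array (0.04), and their mean difference was 0.565, so that BOP1 passes 2-fold on 1 of its 2 probe sets only.

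The other 60S factors lay between 0.51 and 0.99. RRP15 had a difference of 0.99, NOP53 one of 0.96, and NOL9, a polynucleotide kinase of pre-rRNA processing, one of 0.95. NOP16 stood at 0.73 and NOL8 at 0.61. NOL12, a nucleolar RNA-binding protein, read 4.89 on the stretch array and 4.38 on the static array (0.51).

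The nucleolar proteins with several roles were far apart. MYBBP1A, a MYB-binding nucleolar protein that also acts on RNA polymerase I, read 6.94 on the stretch array and 4.61 on the static array, a difference of 2.33 (5.03-fold) at rank 59. NCL, the abundant nucleolar protein nucleolin, read 8.02 on the stretch array and 7.79 on the static array (0.23), a difference that turned negative under reference gene centring and loess and was 0.00 after quantile normalization. Genes that carry the NOL symbol without a known part in ribosome assembly, NOL4L (3.62 on the stretch array and 3.45 on the static array) and NOL4 (1.97 on the stretch array and 1.88 on the static array), did not exceed the background bound on either array. Of the 4 pseudogenes and noncoding RNAs, 0 passed 2-fold, where 12.3% of all genes past the filter passed upward and 2.5% downward. RRP7BP, a pseudogene of RRP7A, had a difference of 0.81 and cannot be fully separated from its parent gene. NOL4L-DT read 2.90 on the stretch array and 3.44 on the static array (-0.54).

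Other genes of the same pathway, outside the symbol rule, were also mostly higher. The lists of these genes were chosen with earlier results of these data known, so they are not an independent check. Of 74 further assembly factors, 51 were measured by name, with a median difference of 0.85. At least 2-fold higher were 17 of them and 0 lower, where 12.3% of all genes were higher and 2.5% lower. At 1.5-fold, 31 were higher and 0 lower, where 27.7% of all genes were higher and 8.9% lower. After loess, 8 were 2-fold higher, where 7.26% of genes were. PDCD11, the counterpart of yeast Rrp5, which serves both subunits, read 7.01 on the stretch array and 4.50 on the static array (2.51). WDR3, a processome protein, stood at 1.92 and the methyltransferase EMG1 at 1.72. The lowest were FCF1 (-0.24) and WDR46 (-0.13). Among 14 measured DEAD and DEAH box helicases of ribosome assembly, 5 passed 2-fold upward and 0 downward, where 12.3% of all genes passed upward and 2.5% downward, and the median was 0.725. After loess, 1 of the 14 passed 2-fold upward, a share near the 7.26% of all genes, and the median was 0.38. DHX33 read 7.25 on the stretch array and 5.44 on the static array (1.81), DDX24 stood at 1.20 and DDX55 at 1.06, and the lowest were DDX51 (-0.02) and DDX52 (0.00).

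Genes of the ribosomal proteins, which these factors assemble with the RNA, had a median difference near that of all genes past the filter. Their median signals were 6.125 on the stretch array and 6.055 on the static array. Genes of any kind with mean signals from 6 to 7 had a higher median difference, 0.45. The ribosomal proteins were not matched to other genes by level. Of 46 measured genes of cytosolic ribosomal proteins, a group added after the nucleolar values were seen, 2 were at least 2-fold higher and 0 lower, where 12.3% of all genes were higher. At 1.5-fold, 7 were higher and 0 lower, where 27.7% of all genes were higher, and the median difference was 0.195, beside 0.20 for all genes past the filter. Reference gene centring turns that median negative, as do loess and quantile normalization. RPS7 (1.12), RPL9 (1.08) and RPS28 (0.73) were highest, and RPS7 was below the background bound on both arrays. The lowest were RPS19, at 10.22 on the stretch array and 10.67 on the static array (-0.45), and RPL19 (-0.44). Many ribosomal protein genes have processed pseudogenes that resemble them, so their signals are uncertain.

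**Figure D4:**
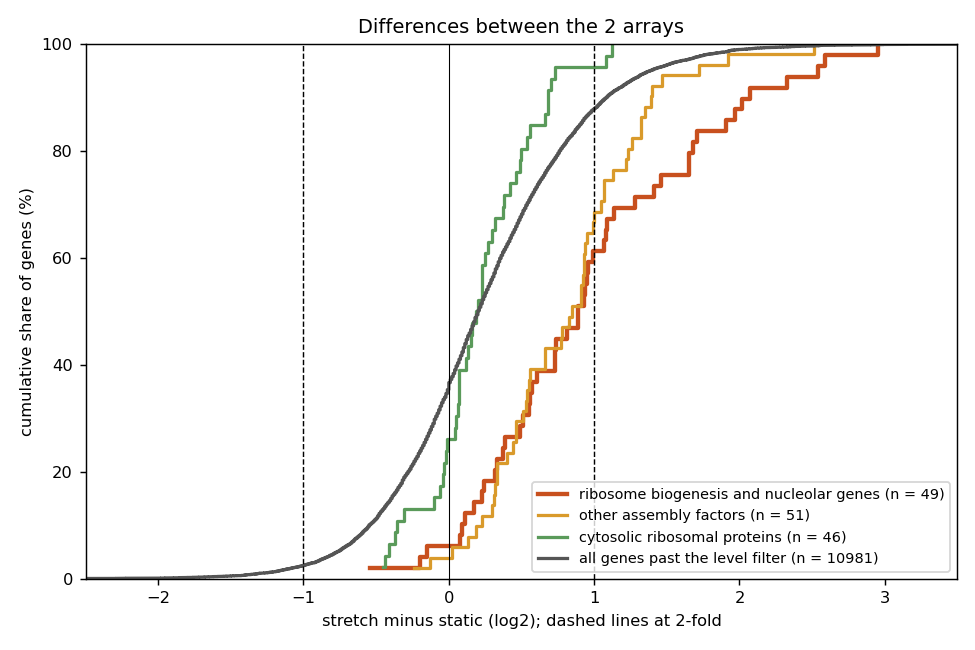
Cumulative share of genes (percent) against the difference, stretch minus static (log2), for the 49 nucleolar genes, 51 other assembly factors, 46 cytosolic ribosomal proteins and 10981 genes past the level filter. The curves of the nucleolar genes and the other assembly factors lie to the right, with medians of 0.89 and 0.85, and that of the ribosomal proteins crosses that of all genes near its median of 0.195.

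RNA polymerase III, which makes 5S and transfer RNA, gave a mixed picture. Of 22 subunits and factors, 8 were measured by name, with a median difference of 0.37. Of these, 1 passed 2-fold upward and 0 downward, a share near the 12.3% of all genes. The median was 0.03 after loess, 0.0075 after quantile normalization and -0.03 after reference gene centring. POLR3E read 6.21 on the stretch array and 4.51 on the static array (1.70), followed by POLR3B (0.95) and POLR3C (0.93). POLR3GL stood at -0.44 and MAF1, a repressor of the polymerase, at -0.31. Of the listed factors that recruit RNA polymerase I, other than RRN3, only TBP was measured by name. TBP, which all nuclear polymerases use, read 6.86 on the stretch array and 6.00 on the static array.

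MYC, which binds E-boxes with MAX, read 7.86 on the stretch array and 6.25 on the static array (1.61). Of 10 measured genes of MYC and its partner network, 2 passed 2-fold upward and 0 downward, where 12.3% of all genes passed upward, and the median difference was 0.435. That median was 0.13 after loess, 0.0525 after quantile normalization and 0.035 after reference gene centring. MLX stood at 1.02 and MLXIP at 0.83. MXI1, a MAX partner known to oppose MYC, read 4.26 on the stretch array and 5.14 on the static array (-0.88), and MGA stood at 0.12.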

How the data were processed

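Gene expression was measured on 2 Affymetrix arrays, 1 of stretched and 1 of static A549 cells, grouped by source name. The stretched sample's title misspells the line (digits swapped), and its source name was used. As deposited, the values are log2 signals of 53617 probe sets, which per the submitters' processing notes are RMA values. The scale was inferred from their range (0.60 to 12.7). The software version and chip definition are not stated in the sources used here, and the columns do not share a distribution (medians 2.47 stretch, 2.57 static).

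The platform table named 16098 probe sets, none with several symbols, and 37519 stay unnamed here. Updating symbols by gene identifier to RefSeq changed 0. The probe set with the highest mean stood for a gene. Background, filter and thresholds are as given above. Roles, lists and the rule for naming genes (all members, and the 3 highest and 2 lowest of each other pathway list) were fixed in writing, but the members and lists were chosen with earlier results of these data known. The role of pseudogenes and noncoding RNAs was added afterwards. Scripts were tested on simulated data. With 1 array per group, no test was run. Alternatives were 4 scalings (loess span 0.3), averaged probe sets, other level filters, a 3-fold threshold, and means. Python 3.11.15, numpy 2.4.6, pandas 2.3.3, statsmodels 0.14.6 and matplotlib 3.10.9 were used.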

Additional observations from a re-analysis of the deposited data

How the results depend on the processing

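No paired analysis was possible because each group has 1 array. For the same reason no array could be left out. The median difference of the 49 genes was positive under each alternative that gives one, from 0.49 (reference gene centring) to 0.99 (median centring), and 0 of them were 2-fold lower under any. Under reference gene centring the members past 1.5-fold numbered 20 higher and 2 lower (NOP10 and NOL4L-DT). Of the 10728 genes past the filter under that scaling, 1366 were higher and 2683 lower. With a 3-fold threshold in place of 2-fold and the deposited scaling, 12 of the 49 were higher, where 357 of 10981 genes were. The median of the RNA polymerase I role was 1.635 when genes had to reach 4.24 (upper quartile of all values) or 4.27 (background bound), since either leaves only RRN3 and POLR1F. Median and reference gene centring shift every gene alike, the level filters and updated symbols cannot alter a gene's own difference, and averaging probe sets can alter only BOP1 and NOL10. Averaged, BOP1 stood at 0.565. The split of all genes past 2-fold depended more on scaling: genes higher made up 83.1% of both as deposited, 89.1% after median centring, 68.2% after loess, 61.4% after quantile normalization and 36.4% after reference gene centring. The cause was not tested. Signals within the background range limit the size of the differences that start there.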
